A study of Homo sapiens with 6 samples.

Results

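The genes described here are the core of the integrated stress response: the 4 kinases that phosphorylate the translation factor eIF2 (EIF2AK1, EIF2AK2, EIF2AK3 and EIF2AK4), the kinases' substrate EIF2S1, the phosphatase subunits PPP1R15A and PPP1R15B, and the downstream factors ATF4, DDIT3 and TRIB3. They are 10 of the 20422 genes in the deposited table. The members were chosen by their role in the pathway, with the fold changes of ORF-Flag against NC in these same 6 libraries already in view. Their values in that contrast are therefore given as a description and support nothing.

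HepG2 is an established cell line from a human liver cancer. RNA-Seq was run on 3 control libraries (NC) and 3 libraries of cells made to express APPLE, a microprotein encoded by the lncRNA ASH1L-AS1, fused to a Flag tag (ORF-Flag). The labels describe transfection, with vector plasmid in NC and with ORF-Flag overexpression plasmid in ORF-Flag. The study's methods instead describe lentiviral infection and selection of stable lines with puromycin, so both forms are given here. The RNA of ASH1L-AS1 was not analysed here, and the labels were not checked against the transgene. Nothing states whether the 3 libraries of a group came from separate cultures, so p-values measure only the spread between these samples, which may be technical.

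In the integrated stress response, kinases that each sense a different stress phosphorylate the alpha subunit of eIF2, which lowers general translation and favours translation of ATF4 mRNA. ATF4 is a bZIP transcription factor that induces genes of amino acid supply together with DDIT3 (CHOP) and TRIB3, and PPP1R15A and PPP1R15B guide protein phosphatase 1 to eIF2 alpha and so end the response. The liver relies on this circuit during amino acid shortage and protein folding load, and much of it acts on translation and phosphorylation, which RNA counts do not record.

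The libraries held between 17494668 (ORF-Flag replicate 2) and 30088457 (NC replicate 3) counted reads, and every member had at least 356 of them in each library. Levels are given as CPM, counts scaled to a common library size after TMM scaling, which corrects for differences in library composition. Of 12386 genes with enough counts to test, 306 were higher in ORF-Flag and 245 were lower by edgeR's quasi-likelihood test with adjusted p < 0.05. When 1 library was dropped, the 551 calls became 459, 267 and 1058 (NC replicates 1, 2 and 3) or 300, 278 and 199 (ORF-Flag replicates 1, 2 and 3). Higher calls ranged from 131 without ORF-Flag replicate 3 to 502 without NC replicate 3, and lower calls from 68 to 556 in the same fits. Among these 6 fits, lower calls were the majority only without NC replicate 3. The shares of all genes called that are given below come from the fit of all 6 libraries and move with these counts. All 10 members were tested in each of the fits with 1 library dropped, and no member gained or lost its call in any of them.

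The 8 hepatocyte markers had a summed level of 21425 to 22480 CPM, most of it APOB, ALB and SERPINA1, while TTR had 5.63 to 6.66 CPM. Within that sum, ALB, SERPINA1 and FGB were higher in all 3 ORF-Flag libraries, and FGB was called (log2 fold change 0.14, adjusted p = 0.0232 in edgeR's quasi-likelihood test). The log2 fold changes of APOB (-0.073), HNF4A (-0.053) and APOA1 (-0.041) were negative, and none of these 3 was called. The 5 fibroblast markers together reached at most 0.148 CPM. The 5 blood cell markers summed to 41.5 to 47.5 CPM, nearly all of it CD68, while PTPRC and CD3E had no count in any library. The 4 endothelial markers summed to 4.75, 4.16 and 5.01 CPM in NC and 6.56, 5.51 and 6.26 CPM in ORF-Flag. PECAM1 made up most of that sum, KDR had no count and CDH5 stayed at or below 0.040 CPM. The endothelial sum was thus higher in all 3 ORF-Flag libraries. The part of these markers in the differences described here was not tested.

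Among the members, PPP1R15A, DDIT3 and EIF2AK4 were called higher in ORF-Flag, and the other 7 were not called. The count of 3 of 10 stands beside 2.47% of all tested genes called higher, and nothing is read from it because the members were chosen with this contrast in view. The count of members called lower was 0 in edgeR and likewise 0 in limma-voom, limma-trend and DESeq2, beside 1.98% of all tested genes in edgeR, and 1 member, EIF2AK2, was lower at an unadjusted p below 0.05, as were 1142 of the 12386 tested genes. In the same 3 members every ORF-Flag library lay above every NC library, where 11.5% of all tested genes were separated in this direction and 10.9% in the opposite one. The median log2 fold change of the 10 members was 0.047, and that of all tested genes was -0.0012. In bulk RNA, less RNA per cell and fewer expressing cells cannot be told apart.

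**Figure D1:**
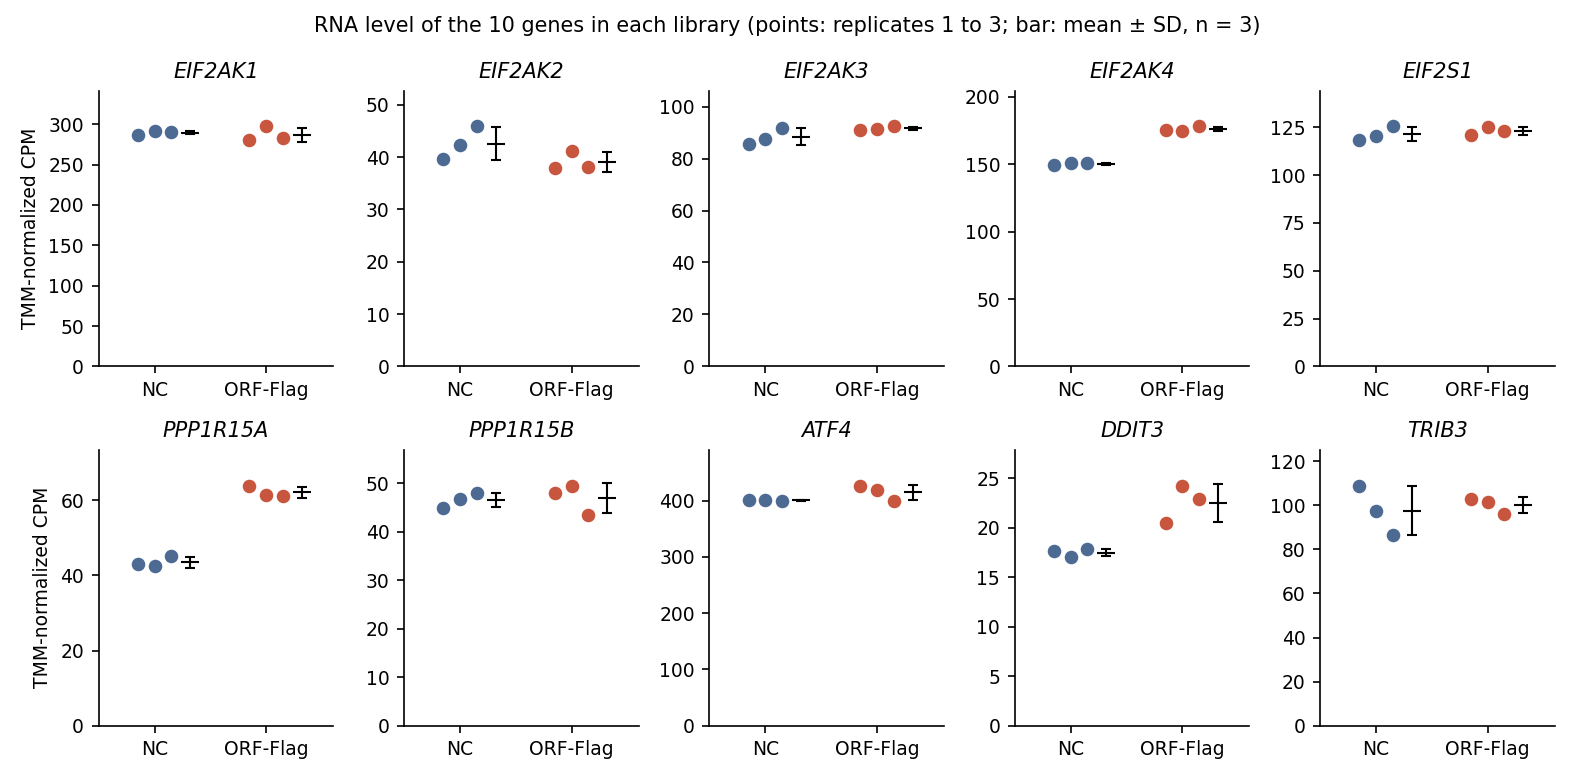
TMM-normalized CPM (vertical axes, each from 0) of the 10 genes in the 3 NC and the 3 ORF-Flag libraries, with points for replicates 1 to 3 from left to right and a bar for mean ± SD (n = 3). The groups are separated in EIF2AK4, PPP1R15A and DDIT3, and they overlap in the other 7 genes.

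Among the kinases, EIF2AK4 (GCN2), which is activated when uncharged tRNA accumulates, differed between the groups. EIF2AK4 (ENSG00000128829.12, chr15:39934146-40035591, plus strand; all gene positions are from GENCODE v29 on GRCh38) had 149.6, 151 and 151 CPM in NC replicates 1, 2 and 3, and 176, 175 and 178 CPM in the ORF-Flag replicates. The libraries of each group lay close together and the groups did not overlap. The means were 150.4 ± 0.758 CPM in NC and 176 ± 1.57 CPM in ORF-Flag (SD, n = 3 each). The log2 fold change was 0.23 (standard error 0.034), a level 17.2% higher in ORF-Flag. A larger log2 fold change was seen in 6.61% of all tested genes. Leaving out each library in turn kept that of EIF2AK4 between 0.22 and 0.23.

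EIF2AK1 (HRI), the kinase that responds to heme deficiency and to mitochondrial stress, showed no such shift. EIF2AK1 (ENSG00000086232.13, chr7:6022244-6059230, minus strand) had 287, 291 and 290.4 CPM in NC and 280.1, 297 and 283 CPM in ORF-Flag. Both the lowest and the highest value belonged to ORF-Flag, so the NC libraries lay inside the ORF-Flag range. The log2 fold change was -0.016, with a 95% interval of -0.084 to 0.053. EIF2AK1 overlaps AIMP2 and ANKRD61 on the opposite strand, and neither of these neighbours was called.

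EIF2AK2 (PKR), an interferon-inducible kinase activated by double-stranded RNA, was the member with the most negative fold change. EIF2AK2 (ENSG00000055332.19, chr2:37099210-37157065, minus strand) had 39.6, 42.3 and 45.8 CPM in NC and 38.0, 41.2 and 38.0 CPM in ORF-Flag. ORF-Flag replicate 2 lay within the NC range and the other ORF-Flag libraries lay just below it, so the groups overlapped. The log2 fold change was -0.13, with a 95% interval of -0.25 to -0.014 before any adjustment over genes, and it did not pass the adjusted threshold. It ranged from -0.18 without NC replicate 1 to -0.074 without NC replicate 3.

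EIF2AK3 (PERK), the kinase in the membrane of the endoplasmic reticulum that senses unfolded protein, had 85.8, 87.7 and 91.9 CPM in NC and 91.2, 91.5 and 92.3 CPM in ORF-Flag. NC replicate 3 reached the ORF-Flag range while the other NC libraries lay below it. The log2 fold change of EIF2AK3 (ENSG00000172071.15, chr2:88556741-88627576, minus strand) was 0.050, with a 95% interval of -0.033 to 0.13, and it was 0.029 without NC replicate 1 and 0.079 without NC replicate 3. EIF2S1 (ENSG00000134001.15, chr14:67359997-67386516, plus strand), which encodes the eIF2 alpha subunit that all 4 kinases phosphorylate, had 118, 121 and 125 CPM in NC and 121, 125 and 123 CPM in ORF-Flag. The ORF-Flag values of EIF2S1 fell inside the NC range, and its log2 fold change of 0.017 had a 95% interval of -0.060 to 0.093.

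On the scale of CPM per kb of exon union, a level that allows genes of different length to be compared, EIF2AK1 made up 59.0% to 61.8% of the summed kinase level across the 6 libraries and EIF2AK2 4.10% to 4.95%. EIF2AK4 made up 14.9%, 14.8% and 14.7% of that sum in NC and 17.2%, 16.5% and 17.2% in ORF-Flag. The share of EIF2AK4 was thus higher in each ORF-Flag library than in any NC library. The shares of EIF2AK1 and EIF2AK2 were lower in each ORF-Flag library than in any NC library, and that of EIF2AK3 overlapped. Shares are tied to each other, because a larger share of EIF2AK4 leaves less of the sum for the other kinases. The levels of EIF2AK1 and EIF2AK2 in CPM overlapped between the groups. The sum itself also overlapped between groups, at 83.7 to 86.1 in NC and 85.5 to 88.9 in ORF-Flag. Both the shares and the order of EIF2AK3 and EIF2AK4 depended on the length used. With the longest transcript as the length, EIF2AK4 made up 23.5% to 23.9% of the sum in NC and 26.1% to 27.1% in ORF-Flag. EIF2AK3 was above EIF2AK4 per kb of exon union, with medians of 16.8 and 13.6, and below it per kb of the longest transcript, with medians of 19.7 and 29.6.

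The largest log2 fold change among the members was that of PPP1R15A (GADD34), the stress-inducible subunit that directs protein phosphatase 1 to eIF2 alpha. PPP1R15A (ENSG00000087074.9, chr19:48872392-48876057, plus strand) had 42.9, 42.5 and 45.2 CPM in NC and 63.9, 61.5 and 61.1 CPM in ORF-Flag. All 3 ORF-Flag libraries lay at least 15.9 CPM above the highest NC library, and within each group the values were close. The means were 43.5 ± 1.44 CPM in NC and 62.2 ± 1.49 CPM in ORF-Flag (SD, n = 3 each), which gives 0.51 as log2 fold change, with a standard error of 0.047. This is a level 42.7% higher in ORF-Flag, and 1.42% of all tested genes had a larger log2 fold change. Without any single library the log2 fold change lay between 0.49 and 0.54.

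Its paralog PPP1R15B (CReP), the subunit made in unstressed cells, did not follow. PPP1R15B (ENSG00000158615.10, chr1:204403387-204411791, minus strand) had 45.0, 46.7 and 48.0 CPM in NC and 48.1, 49.5 and 43.6 CPM in ORF-Flag. The highest and the lowest of these values were both from ORF-Flag, so the groups overlapped. PPP1R15B had a log2 fold change of 0.0088, with a 95% interval of -0.10 to 0.12. In levels per kb of exon union, the ratio of PPP1R15A to PPP1R15B was 1.61, 1.54 and 1.59 in NC and 2.24, 2.1 and 2.37 in ORF-Flag. The ratio was higher in every ORF-Flag library than in any NC library. With the longest transcript as the length it ran from 2.0 to 2.1 in NC and from 2.73 to 3.08 in ORF-Flag. That change of length scales the ratio by the same factor in every library, so it cannot alter the separation.

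**Figure D2:**
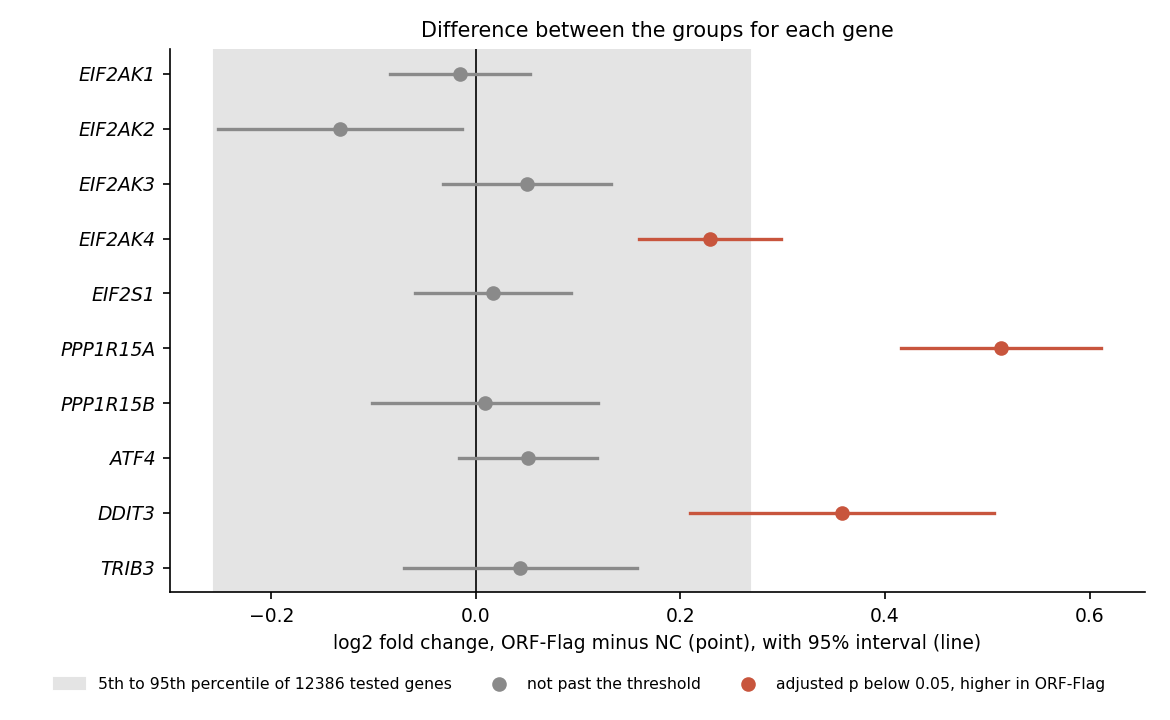
Log2 fold change, ORF-Flag minus NC (horizontal axis), of each gene with its 95% interval (line), in red where the gene passed an adjusted p below 0.05 in edgeR, over a grey band from the 5th to the 95th percentile of 12386 tested genes (-0.26 to 0.27). PPP1R15A at 0.51 and DDIT3 at 0.36 lie outside the band, EIF2AK4 at 0.23 lies inside it, and the intervals of 6 genes include 0.

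Promoter sequences were matched in RefSeq (GRCh38.p14) by symbol for 9 of the 10 members, EIF2AK1 being the exception, as windows from 250 bases before to 50 bases after each start site. Both strands were searched for TGATGNAA (the C/EBP-ATF response element that ATF4 can bind), TGACGTCA (the cAMP response element, bound by CREB and ATF family factors) and the ER stress response element (CCAAT, then any 9 bases, then CCACG). TGACGTCA occurred in 1 member, PPP1R15A, with its first base at position -58 from the start site (chr19:48872363-48872370), and in 1.85% of 35116 promoters. TGATGNAA occurred in 1 member, PPP1R15B, with its first base at position -227 from the start site (chr1:204412037-204412044), and in 3.62% of the promoters. The exact letters of the ER stress response element occurred in 0 members and in 0.08% of the promoters. The DDIT3 window holds CCAAT, then 9 bases, then CCACT, which differs from the searched letters only in the last base. Inexact matches such as this one were not counted in any promoter. The exact matches lay in different genes and none overlapped another motif. A match describes letters only, and no match says only that these letters were not in the window.
The stretches before the start sites of the called members and of PPP1R15B are shown 5' to 3' on the strand of each gene, outside annotated exons, so that the paralogs and the called genes can be compared; capitals mark the motif match. They lie at chr19:48872171-48872391 (PPP1R15A, plus strand), chr1:204411818-204412067 (PPP1R15B, minus strand), chr15:39933865-39934114 (EIF2AK4, plus strand) and chr12:57520518-57520709 (DDIT3, minus strand). The DDIT3 stretch precedes 1 of 2 start sites in the promoter table and lies inside the gene span given by GENCODE v29, between exons.
PPP1R15A: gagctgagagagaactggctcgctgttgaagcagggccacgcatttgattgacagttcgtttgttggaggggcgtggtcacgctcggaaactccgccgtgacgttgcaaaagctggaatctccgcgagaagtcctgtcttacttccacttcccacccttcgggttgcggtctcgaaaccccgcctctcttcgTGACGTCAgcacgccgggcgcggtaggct
PPP1R15B: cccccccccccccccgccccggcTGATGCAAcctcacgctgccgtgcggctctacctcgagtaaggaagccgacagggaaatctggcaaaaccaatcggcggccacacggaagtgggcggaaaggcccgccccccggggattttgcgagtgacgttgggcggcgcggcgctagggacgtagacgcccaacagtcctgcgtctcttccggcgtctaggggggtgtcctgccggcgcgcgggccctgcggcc
EIF2AK4: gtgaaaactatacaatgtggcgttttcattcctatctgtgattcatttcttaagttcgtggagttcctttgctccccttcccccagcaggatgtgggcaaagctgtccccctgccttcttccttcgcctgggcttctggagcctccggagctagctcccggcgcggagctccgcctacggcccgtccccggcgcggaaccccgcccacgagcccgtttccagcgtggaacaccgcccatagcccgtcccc
DDIT3: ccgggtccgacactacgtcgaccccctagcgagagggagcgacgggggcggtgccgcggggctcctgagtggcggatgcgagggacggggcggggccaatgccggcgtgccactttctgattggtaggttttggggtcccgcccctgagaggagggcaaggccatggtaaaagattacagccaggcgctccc
The stretch of PPP1R15A was 59.3% G and C, that of PPP1R15B 70.8%, that of EIF2AK4 61.6% and that of DDIT3 68.2%.

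Of the downstream factors, ATF4 itself differed little. ATF4 (ENSG00000128272.18, chr22:39519695-39522685, plus strand) had 400.7, 401 and 399.7 CPM in NC and 427, 418 and 400.1 CPM in ORF-Flag. The NC libraries were nearly equal, ORF-Flag replicates 1 and 2 lay above them, and ORF-Flag replicate 3 lay among them. Its log2 fold change was 0.051, with a 95% interval of -0.017 to 0.12, and it was 0.030 without ORF-Flag replicate 1 and 0.077 without ORF-Flag replicate 3. Of all stretches of 31 bases in the longest ATF4 transcript, 37.5% are found in transcripts of other genes, chiefly the pseudogenes ATF4P3 and ATF4P4, so reads shared with these copies may have been dropped or split in the counting.

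DDIT3 (CHOP), a bZIP factor induced by ATF4 and linked to cell death under lasting stress, was higher in ORF-Flag. DDIT3 (ENSG00000175197.13, chr12:57516588-57521737, minus strand) had 17.6, 17.1 and 17.8 CPM in NC and 20.4, 24.2 and 22.9 CPM in ORF-Flag. The groups did not overlap, and the ORF-Flag libraries were more spread out than the NC libraries. The means were 17.5 ± 0.390 CPM in NC and 22.5 ± 1.92 CPM in ORF-Flag (SD, n = 3 each), 28.1% higher, which on the log2 scale is 0.36 with a standard error of 0.072. The fold change was smallest without ORF-Flag replicate 2, at 0.31, and largest without ORF-Flag replicate 1, at 0.43.

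DDIT3 is the member whose counts overlap most with other genes in the table. When its longest transcript was cut into 31-base stretches, 35.8% of them were found, on either strand, in transcripts of MARS1, which overlaps it on the opposite strand, or AC022506.1, which overlaps it on the same strand. The use of strand in the counting is not given in the sources used here, so the DDIT3 value is uncertain to that extent. MARS1 had 185, 176 and 178 CPM in NC and 179, 177 and 167 CPM in ORF-Flag, and its log2 fold change was -0.039 (standard error 0.037). AC022506.1 had 1.68, 2.12 and 1.97 CPM in NC and 2.27, 2.99 and 2.48 CPM in ORF-Flag, on at most 67 counts in a library, and a log2 fold change of 0.39 (standard error 0.19). Like DDIT3, this gene on the same strand was higher in every ORF-Flag library than in any NC library. Neither MARS1 nor AC022506.1 passed the threshold, and nor did MBD6, which also overlaps DDIT3. PPP1R15A shared 0 of its 31-base stretches with another gene, and EIF2AK4 shared 0.93%.

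TRIB3, a pseudokinase induced by ATF4 and DDIT3 that restrains ATF4 activity, had 109, 97.4 and 86.5 CPM in NC and 103, 101 and 96.2 CPM in ORF-Flag. The NC libraries spanned the whole ORF-Flag range, with NC replicate 1 the highest and NC replicate 3 the lowest of all 6. The log2 fold change of TRIB3 (ENSG00000101255.12, chr20:362835-397559, plus strand) was 0.044, with a 95% interval of -0.071 to 0.16. It was -0.041 without NC replicate 3 and 0.13 without NC replicate 1, so its sign changed when NC replicate 3 was dropped.

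**Figure D3:**
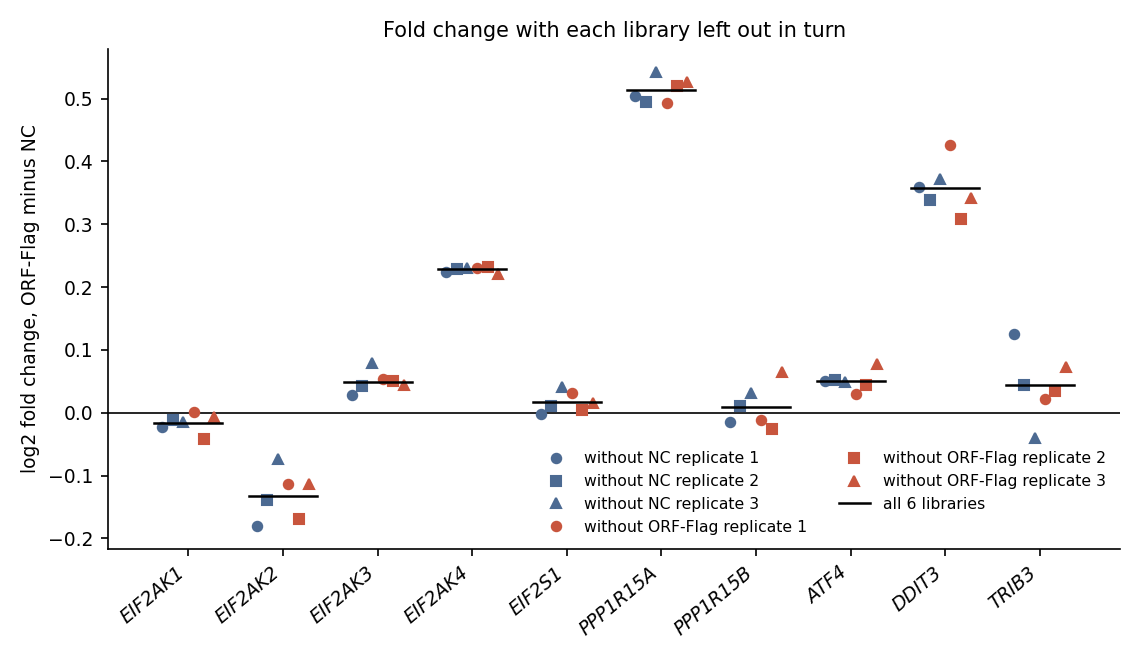
Log2 fold change, ORF-Flag minus NC (vertical axis), of each gene with each of the 6 libraries left out in turn (points, coloured by the group of the library left out), beside the value from all 6 libraries (black line). PPP1R15A stays between 0.49 and 0.54, DDIT3 between 0.31 and 0.43, and TRIB3 lies on both sides of 0.

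Levels of different members were compared as CPM per kb of exon union. By the median over the 6 libraries, ATF4 had the highest level per kb at 159.5, followed by EIF2AK1 at 52.0, TRIB3 at 28.9 and EIF2S1 at 21.6. These 4 genes did not overlap each other in any library. At the low end, PPP1R15B had a median level per kb of 9.06 and EIF2AK2 of 3.76, and neither overlapped another member. Between them lay PPP1R15A (17.2), EIF2AK3 (16.8), DDIT3 (14.6) and EIF2AK4 (13.6). The ranges of PPP1R15A and DDIT3 over the libraries crossed each other and those of the 2 kinases, while EIF2AK3 lay above EIF2AK4 in every library. Per kb of the longest transcript the order differed, with EIF2AK4 (median 29.6) above EIF2S1 (median 27.2).

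Within this middle set the order of levels per kb of exon union differed between the groups. In NC, the level of EIF2AK3 was 16.3 ± 0.583 and that of PPP1R15A 14.1 ± 0.466 (SD, n = 3 each), with no overlap of the libraries. In ORF-Flag, EIF2AK3 was at 16.9 ± 0.11 and PPP1R15A at 20.1 ± 0.481 (SD, n = 3 each), again with no overlap and in the opposite order. Per kb of the longest transcript, the NC ranges of EIF2AK3 (18.5 to 19.8) and PPP1R15A (17.9 to 19.0) overlapped. Within each NC library EIF2AK3 was still above PPP1R15A on that scale. DDIT3 lay below EIF2AK3 in every NC library, while the ORF-Flag levels per kb of exon union overlapped, at 15.6 to 18.5 for DDIT3 and 16.8 to 17 for EIF2AK3.

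**Figure D4:**
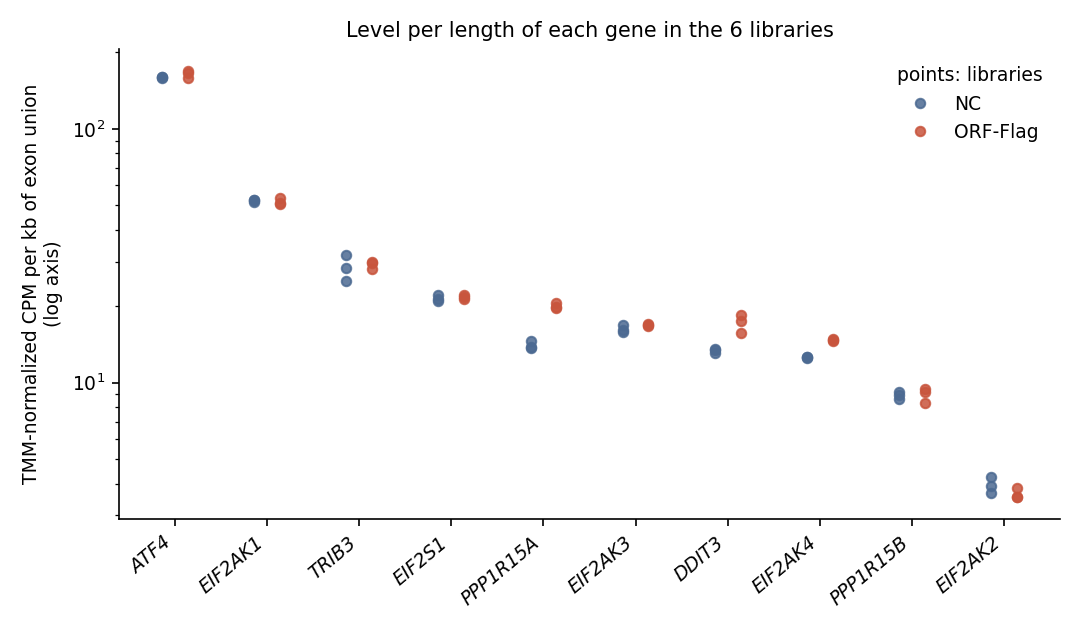
Level of each gene as TMM-normalized CPM per kb of exon union (vertical log axis) in the 3 NC and 3 ORF-Flag libraries (points), ordered by the median over the 6 libraries. ATF4, with a median of 159.5, is highest and EIF2AK2, with a median of 3.76, is lowest, and PPP1R15A moves from below EIF2AK3 in NC to above it in ORF-Flag.

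Around the members, 119 genes in 12 lists by role were compared, of which 115 were tested. Of these, 13 were called higher and 4 lower in ORF-Flag, with a median log2 fold change of -0.021, beside 2.47% called higher and 1.98% called lower among all tested genes and a median of -0.0012. The lists were drawn up with earlier results in view, so these counts describe the lists only. The 13 higher calls became 8 without NC replicate 2 and 7 without ORF-Flag replicate 3, and the 4 lower calls became 12 without NC replicate 3. FGF21, NIBAN1, GADD45G and RIGI had too few counts to test, at most 9 in any library.

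Among partners of EIF2S1 in the eIF2 and eIF2B complexes, 1 of 7 tested genes rose and 1 fell. EIF2B1, a subunit of the exchange factor that phosphorylated eIF2 inhibits, fell from 55.5 ± 0.373 to 47.4 ± 0.924 CPM (SD, n = 3 each; log2 fold change -0.23, edgeR adjusted p = 0.00513), lower in all 3 ORF-Flag libraries. EIF2B2, another subunit, rose from 39.2 ± 0.688 to 44.5 ± 1.81 CPM (SD, n = 3 each; log2 fold change 0.19, edgeR adjusted p = 0.0374). EIF2B2 missed the threshold in DESeq2 and when NC replicate 2, ORF-Flag replicate 1 or ORF-Flag replicate 3 was dropped (adjusted p up to 0.177), with a log2 fold change of 0.17 to 0.21 over all fits.

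None of 8 activators and inhibitors of the EIF2AK kinases was called in edgeR, DESeq2, limma-trend or limma-voom, and 0 had an unadjusted p below 0.05 in edgeR. They include GCN1, which activates EIF2AK4, with a log2 fold change of -0.069, and HSPA5, the chaperone that restrains EIF2AK3, with -0.026. GCN1 was called without NC replicate 3, at -0.11 (adjusted p = 0.0347, against up to 0.677 in the other settings). Of the 3 catalytic subunits of protein phosphatase 1, to which PPP1R15A and PPP1R15B bind, 0 were called by any of these tools and 0 had an unadjusted p below 0.05, with log2 fold changes of -0.043 for PPP1CA and -0.038 for PPP1CC.

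In edgeR, the bZIP partners and relatives of ATF4 held the most calls, with 5 of 14 genes higher and 0 lower. Among all tested genes 2.47% were called higher and 1.98% lower. The median log2 fold change of this list was 0.13. DESeq2 called 3 of its genes higher, as many as among the stress effectors downstream of ATF4. In the same list 1 gene, CEBPA, was lower at an unadjusted p below 0.05 in edgeR (log2 fold change -0.31, edgeR adjusted p = 0.0521), with overlapping groups. In this list 1 gene was called lower by limma-trend and 0 by DESeq2 or limma-voom. ATF3, a stress-induced repressor and activator, had 4.75, 4.92 and 4.54 CPM in NC and 8.83, 8.27 and 9.82 CPM in ORF-Flag (log2 fold change 0.93, edgeR adjusted p = 1.61e-05). The others were FOSL1 at 0.50, JUNB at 0.29, JUN at 0.19 and FOSB at 2.07, each with all ORF-Flag libraries above all NC libraries. Such a separation was seen in 11.5% of all tested genes. FOSB had between 3 and 25 counts per library. FOSB and JUN missed the threshold when NC replicate 2 or ORF-Flag replicate 3 was dropped (adjusted p up to 0.146 and 0.253), JUN also when ORF-Flag replicate 2 was dropped, and JUNB when any library but NC replicate 1 was dropped (up to 0.178). Over the 6 fits with 1 library dropped, the log2 fold change ran from 1.74 to 2.34 in FOSB, from 0.13 to 0.25 in JUN and from 0.22 to 0.34 in JUNB. DESeq2 did not call JUNB (adjusted p = 0.0816) and gave no adjusted p for FOSB.

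Among targets of ATF4, 19 genes of amino acid synthesis and transport were compared, of which 1 rose and 1 fell. At an unadjusted p below 0.05 in edgeR, 2 were higher and 5 lower, beside 1151 and 1142 of all 12386 tested genes. The groups were separated upward in 2 and downward in 5, beside 11.5% and 10.9% of all tested genes. A positive fold change was seen in 2 of the 19, beside 6133 of 12386 tested genes, and the median log2 fold change was -0.047. SLC38A2, a transporter of neutral amino acids, rose from 476 ± 18.6 to 541 ± 12.9 CPM (SD, n = 3 each; log2 fold change 0.18, edgeR adjusted p = 0.00219), higher in all 3 ORF-Flag libraries. PYCR1, an enzyme of proline synthesis, fell by 0.13 on the log2 scale (edgeR adjusted p = 0.0383). PYCR1 kept its call only in the fit that dropped NC replicate 3 among the 6 fits with 1 library dropped (adjusted p up to 0.189, log2 fold change -0.17 to -0.11). Of 13 genes for tRNA synthetases and tRNA export, 0 were called by edgeR, DESeq2, limma-trend or limma-voom. In edgeR 1 of these 13 had an unadjusted p below 0.05, namely IARS1 at -0.076, and the most abundant, AARS1, was at -0.012.

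Among stress effectors downstream of ATF4, 3 of 14 tested genes rose and 0 fell in edgeR, DESeq2, limma-trend or limma-voom, also at an unadjusted p below 0.05 in edgeR, and the median log2 fold change was 0.017. NUPR1, a stress-induced chromatin protein, had 63.5, 67.7 and 65.1 CPM in NC and 85.7, 82.6 and 80.7 CPM in ORF-Flag (log2 fold change 0.34, edgeR adjusted p = 1.78e-05). SESN2, an inhibitor of mTORC1, was at 0.33 (edgeR adjusted p = 0.00273) and GDF15, a secreted stress hormone, at 0.19 (edgeR adjusted p = 0.0124), both higher in all 3 ORF-Flag libraries. GDF15 missed the threshold when ORF-Flag replicate 3 was dropped (adjusted p = 0.0774, the highest of its alternatives), and its log2 fold change was 0.12 without NC replicate 3 and 0.25 without NC replicate 1. Of 5 targets of DDIT3, TNFRSF10B, a death receptor, rose by 0.22 on the log2 scale (edgeR adjusted p = 0.00123) and 0 fell by any of these tools or at an unadjusted p below 0.05 in edgeR.

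In the IRE1 and ATF6 arms, which act beside EIF2AK3 in the unfolded protein response, 0 of 17 genes rose in any of these 4 tools, and 2 fell in edgeR and 3 in each of DESeq2, limma-trend and limma-voom. At an unadjusted p below 0.05 in edgeR, 3 of the 17 were higher and 4 lower, where 1151 and 1142 of all 12386 tested genes were. The groups were separated upward in 6 of the 17 and downward in another 6, where 11.5% and 10.9% of all tested genes were. ATF6B, a paralog of the sensor ATF6, fell from 64.6 ± 1.53 to 52.7 ± 2.48 CPM (SD, n = 3 each; log2 fold change -0.29, edgeR adjusted p = 0.000436), and CRELD2, a secreted chaperone, fell by 0.19 on the log2 scale (edgeR adjusted p = 0.00937). CRELD2 was not called when ORF-Flag replicate 3 was dropped (adjusted p = 0.0776, the highest of its alternatives), though its log2 fold change was still -0.18. The paralogs of TRIB3 were not called by edgeR, limma-trend or limma-voom, nor at an unadjusted p below 0.05 in edgeR, and DESeq2 did not call TRIB1 and gave no adjusted p for TRIB2. They had log2 fold changes of 0.049 for TRIB1 and -0.41 for TRIB2, the latter on at most 29 counts. TRIB1 was at -0.020 without ORF-Flag replicate 2, and TRIB2 ran from -0.69 without ORF-Flag replicate 3 to -0.22 without ORF-Flag replicate 1.

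GADD45A and GADD45B, which share a name with PPP1R15A (GADD34) and DDIT3 (GADD153) from their induction by growth arrest and DNA damage, both rose. GADD45A rose from 43.0 ± 0.521 to 50.7 ± 0.852 CPM (SD, n = 3 each; log2 fold change 0.24, edgeR adjusted p = 0.00419), and GADD45B rose by 0.67 on the log2 scale (edgeR adjusted p = 0.00803), each higher in all 3 ORF-Flag libraries. GADD45B was not called when either NC replicate 2 or ORF-Flag replicate 3 was dropped (adjusted p up to 0.0709), with log2 fold changes of 0.61 in both fits. Of 11 interferon-stimulated genes, a class to which EIF2AK2 belongs, 0 were called by any of the 4 tools and 1 was lower at an unadjusted p below 0.05 in edgeR. The most abundant, ADAR, had a log2 fold change of -0.056.

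**Figure D5:**
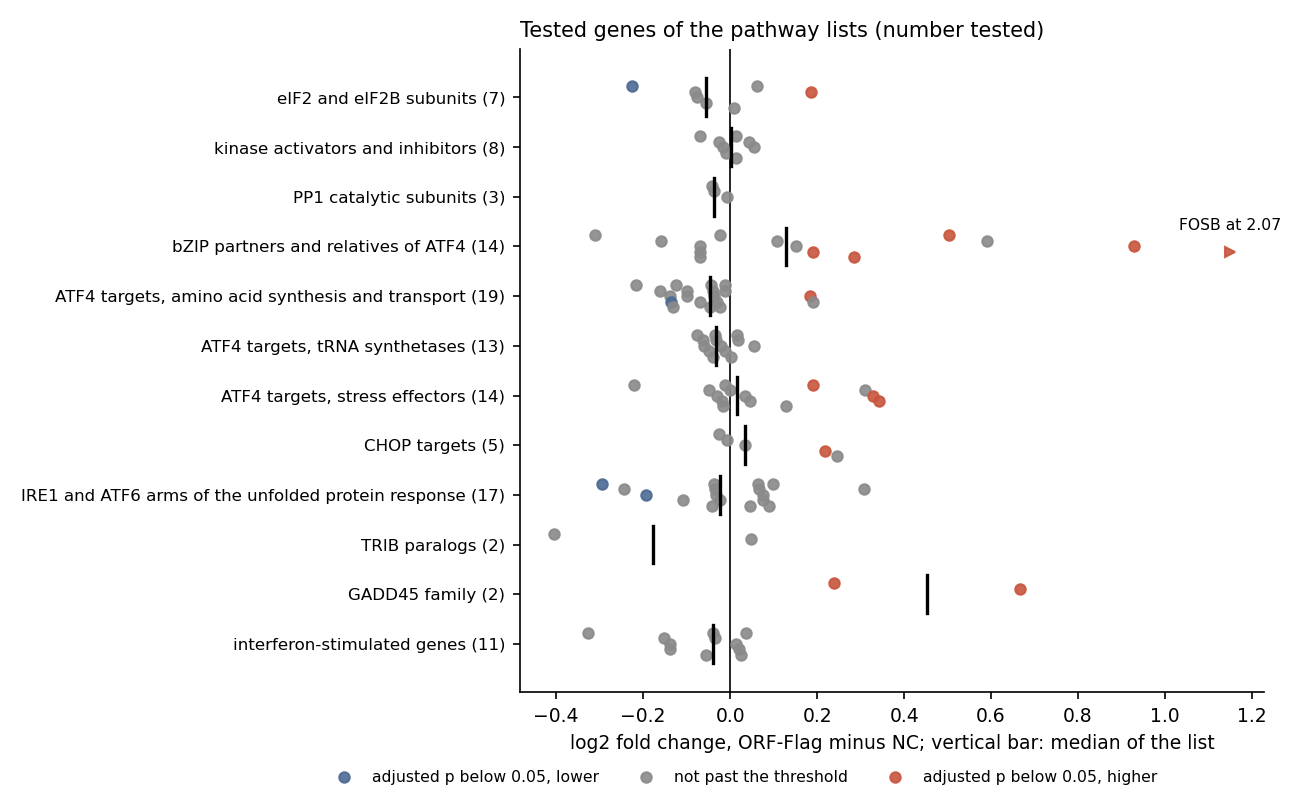
Log2 fold change, ORF-Flag minus NC (horizontal axis), of the tested genes in each list (points), coloured where edgeR's adjusted p was below 0.05, with a vertical bar at the median of the list. FOSB, at 2.07, is drawn as an arrow at the right edge, and the 19 amino acid genes centre on -0.047 while the 14 bZIP genes centre on 0.13.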

How the data were processed

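RNA was extracted with TRIzol and libraries were made with the VAHTS universal V10 kit. Used here were the counts that the authors deposited, unscaled and by gene. The submitters' processing notes name cutadapt 1.11, HISAT2 2.1.0, featureCounts 1.6.0, edgeR and GRCh38; the annotation, strand setting and handling of shared reads are not given in the sources used here. Of 20422 Ensembl identifiers, 20421 matched a gene name, which for some genes was the identifier itself in place of a symbol. Genes were filtered with filterByExpr, scaled by TMM, and tested with edgeR 4.0.16 (quasi-likelihood, two-sided, in R 4.3.3), with Benjamini-Hochberg adjustment over 12386 genes and calls at an adjusted p below 0.05. Intervals are 95%. DESeq2 1.42.0 and limma 3.58.1 were alternatives (the study's methods name limma), as were other scalings, filters, a replicate block and each library left out. Lengths came from GENCODE v29, and figures were drawn with matplotlib 3.10.9. Named were all members, the called genes of each list (at most 5, by p), and at most 2 of the most abundant genes of a list with no call. CEBPA, not called in edgeR, was named besides. The members and lists were chosen with earlier results of these data known.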

Additional observations from a re-analysis of the deposited data

How the results depend on the processing

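Over 14 alternatives each, the 10 members stayed on the same side of the threshold, with 3 called higher and 0 called lower throughout, and EIF2AK1, EIF2S1, PPP1R15B and TRIB3, all uncalled, changed sign in at least 1 of them, as did the uncalled list genes TRIB1, PPP1CA and AARS1. Of 517 values over 37 genes, 491 kept direction and side of the threshold or were uncalled in both, 25 were no longer called (FOSB in DESeq2 for want of an adjusted p) and 1 gained it, and 0 called values changed sign. The 551 calls over all genes ranged from 199 to 1058 with 1 library left out, those among the list genes from 7 to 13 higher and from 3 to 12 lower. Without a filter on low counts 9 list genes were called lower in place of 4. DESeq2 called 428 genes, limma-trend 594, limma-voom 527 and the fit without a filter 824. With the replicate number as a replicate block, 731 genes were called, with 3 members and 13 list genes higher, 0 members and 8 list genes lower. The correlations of deviations between libraries of the same number were 0.0666, 0.0266 and 0.0448. Those between libraries of different number ran from -0.078 to 0.0304. The main fit did not treat libraries of the same number as pairs, and whether they are pairs was not tested. The cause of the shifts in the counts of calls was not tested. Levels per length depended on the length used, with EIF2AK4 at 13.6 per kb of exon union and 29.6 per kb of longest transcript. Depth limits the genes with few counts most, FOSB with as few as 3 and TRIB2 with as few as 13 in a library.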
